A study of Mus musculus with 2 samples.

Results

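Immunoglobulin constant region genes encode the part of the antibody chains that stays the same whichever V segment is joined to it. Their RNA was described in 2 cultures of mouse pro-B cells, the bone marrow precursors in which heavy chain gene assembly takes place. The 10 genes taken were the heavy chain genes Ighm (µ), Ighd (δ), Ighg3, Ighg1, Ighg2b and Ighg2c (γ) and Igha (α) and the light chain genes Igkc (κ), Iglc1 and Iglc2 (λ). They were taken by name, with every transcript that the GENCODE M21 annotation gives them, though earlier results of these data were known at the time. Of the 10 genes, 8 had a transcript among the 93615 rows of the deposited table, with 9 transcripts in all. The identifiers of Ighd and Iglc1 matched no row, and both genes were not analysed here.

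The 2 cultures differed in the alleles of Setdb1, which encodes a histone H3 lysine 9 methyltransferase. One carried undeleted alleles (Setdb1 C/C) and the other deleted ones (Setdb1 Δ/Δ), and both carried a bcl2 transgene, labelled bcl2-tg, whose promoter the labels do not name. Cells sorted from bone marrow grew for 4 days in medium with interleukin 7 at 5 ng/µl, as the labels give it, before total RNA was taken and freed of ribosomal RNA. Each genotype is 1 library of paired 101-base reads, so every difference is one between 2 libraries, without a replicate check and without a p-value. Values are RPKM, read numbers divided by transcript length and library depth. Levels of different genes can be set side by side only roughly, because the length that fitted the values was not of 1 kind. It was the exonic length for Iglc2 (606 bases, 315 coding) and the coding length for Igkc (323 bases, 532 exonic). The ratio of the 2 libraries for 1 gene does not depend on the length. The depth recovered from the values was 171 M reads (M, mega) in C/C and 193 M in Δ/Δ. The labels give no strain, sex or age.

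Antibody chains are made stepwise. A heavy chain V segment is first joined to D and J segments in the pro-B cell, and the joined exon is spliced to the µ constant region, which lies nearest to the J segments. The µ chain pairs with the surrogate light chain (Vpreb and Igll1 proteins) and the signalling chains Cd79a and Cd79b, and κ or λ light chain genes are assembled afterwards, in pre-B cells. The δ, γ, ε and α constant regions lie further along the same chromosome. The γ, ε and α regions are mostly used after class switching, in which the DNA between them and the J segments is cut out. Constant region genes are also transcribed before any joining or switching, as so-called germline or sterile transcripts. RPKM over a constant region count all of these together.

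The table lists Ighm as 2 transcripts that end differently, a secreted and a membrane form. Their last coding bases are shown because, within the coding sequence, reads can tell the forms apart only there. The capitals mark coding bases that only that form has, read from the GENCODE transcripts (GRCm38, minus strand). Those of the secreted form Ighm-201 lie at chr12:113420867-113420928, and those of the membrane form Ighm-202 lie in 2 exons within chr12:113418826-113419068.
Ighm-201: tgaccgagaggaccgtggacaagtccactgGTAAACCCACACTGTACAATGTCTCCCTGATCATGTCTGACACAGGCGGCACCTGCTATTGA
Ighm-202: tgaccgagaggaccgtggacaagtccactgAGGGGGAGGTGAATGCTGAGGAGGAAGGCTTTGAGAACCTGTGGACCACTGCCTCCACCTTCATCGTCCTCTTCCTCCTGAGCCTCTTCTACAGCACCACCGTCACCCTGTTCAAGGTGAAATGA
The forms share 1305 coding bases, which are 95.5% of the secreted and 91.3% of the membrane coding sequence. The secreted form has 62 coding bases of its own and the membrane form 125.

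The 4 γ genes arose from one another and remain similar, so the start of each coding sequence is given with the bases that differ from Ighg2b in capitals.
Ighg2b-201: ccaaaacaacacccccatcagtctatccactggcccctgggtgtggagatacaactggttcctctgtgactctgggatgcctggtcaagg
Ighg2c-201: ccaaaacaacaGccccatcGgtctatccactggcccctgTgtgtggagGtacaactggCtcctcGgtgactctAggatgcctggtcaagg
Ighg1-201: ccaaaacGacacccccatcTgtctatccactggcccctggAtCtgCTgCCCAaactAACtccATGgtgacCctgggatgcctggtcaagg
Ighg3-201: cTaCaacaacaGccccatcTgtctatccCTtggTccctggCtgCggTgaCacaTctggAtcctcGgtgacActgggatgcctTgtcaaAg
Over the whole secreted coding sequence Ighg2b was 85.9% identical to Ighg2c, 77.0% to Ighg1 and 76.7% to Ighg3. The λ genes were compared in the same way, with capitals for bases that differ from Iglc2.
Iglc2-202: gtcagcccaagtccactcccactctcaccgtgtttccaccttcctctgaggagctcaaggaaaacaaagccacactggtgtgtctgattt
Iglc3-201: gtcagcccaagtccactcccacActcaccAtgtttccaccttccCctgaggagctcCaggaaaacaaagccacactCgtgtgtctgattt
Iglc1-201: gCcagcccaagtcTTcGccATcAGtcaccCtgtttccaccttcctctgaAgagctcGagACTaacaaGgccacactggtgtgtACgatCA
Iglc2 and Iglc3, which is not among the 10 genes and matched no row, differed at 11 of 317 aligned coding bases, and Iglc2 and Iglc1 at 80 of 316. No 101-base window of any coding sequence of these genes was found exactly in a transcript of another gene. With up to 2 mismatches, 35 of 218 such windows of Iglc2 would also match Iglc3, and 106 of 910 windows of Ighg2b would match Ighg2c, so part of the reads of those pairs could be placed on either. No window of Ighg2b came that close to Ighg1 or Ighg3.

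The constant region RNA was dominated by Ighm in both libraries. Ighm (ENSMUSG00000076617) lies on the minus strand of chromosome 12 (GRCm38, 113418558 to 113422730). Its membrane form (ENSMUST00000177715) stood at 3274 RPKM in C/C, against 1143 in Δ/Δ. The secreted form (ENSMUST00000103426) stood at 3145 RPKM in C/C, against 1096 in Δ/Δ. Both forms were lower in Δ/Δ, by 2.87-fold each, with a 95% counting interval of 2.85 to 2.88 for the membrane and 2.85 to 2.89 for the secreted form. The intervals treat 2 reads as 1 fragment and cover counting error only. The ratio of the membrane to the secreted value was 1.04 in both libraries. Since most of either coding sequence is shared, that ratio would move little even with a sizeable shift between the forms. Among all 36980 gene symbols in the table Ighm ranked 18th by RPKM in C/C and 96th in Δ/Δ.

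**Figure D1:**
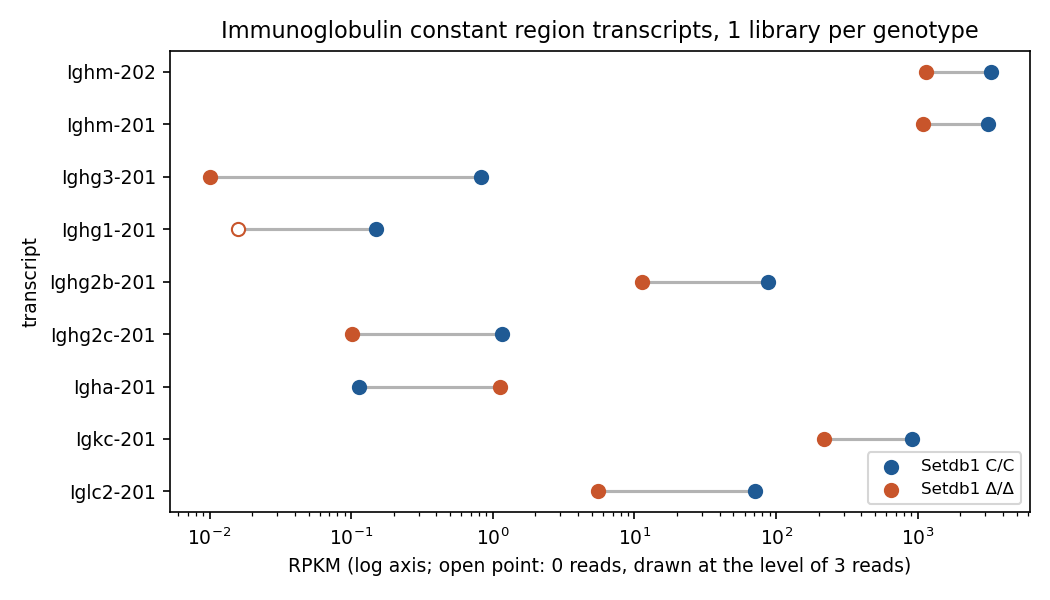
RPKM (log axis) of the 9 constant region transcripts in the C/C library (blue) and the Δ/Δ library (orange), joined by a line. The Δ/Δ point lies to the left of the C/C point for every transcript but Igha-201, and the open point marks Ighg1-201, listed at 0 in Δ/Δ and drawn at the level of 3 reads.

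Ighg2b was the only γ gene with a high level. Ighg2b (ENSMUST00000103418, chromosome 12, 113306285 to 113307933) had 87.9 RPKM in C/C against 11.4 in Δ/Δ, 7.74-fold lower (interval 7.27 to 8.25). In C/C it was the 985th gene by RPKM and in Δ/Δ the 5857th. Its close relative Ighg2c (ENSMUST00000103416, 113285325 to 113288932), the form of γ2a that the C57BL/6 reference carries, had 1.16 RPKM in C/C against 0.102 in Δ/Δ. That is an 11.3-fold lower value (interval 6.25 to 22.5) from about 239 and 24 reads. Reads of Ighg2c may include some of the far more abundant Ighg2b, as the sequences above show. Their part in the Ighg2c values and ratio was not tested. Ighg2b stood 76.1 times above Ighg2c in C/C and 111 times in Δ/Δ, though the annotated length of Ighg2c did not give whole reads.

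The other γ genes stayed under 1 RPKM, with 2 reads or none in Δ/Δ. Ighg3 (ENSMUST00000103423, 113359575 to 113361232) measured 0.821 RPKM in C/C from 139 reads and 0.0100 RPKM in Δ/Δ from 2 reads, a ratio of 78.7 in reads per depth with a counting interval of 13.8 to 3175. Ighg1 (ENSMUST00000103420, 113328874 to 113330523) measured 0.150 RPKM in C/C from 25 reads and was listed at 0 in Δ/Δ. Its ratio is bounded only from one side: the 95% counting interval allows any value of Ighg1 from 3.45-fold lower upward. Set against 3 reads in that library, as a floor and without the error of the 25 reads, Ighg1 would be at least 9.41-fold lower. All 4 γ genes thus had a lower value in the Δ/Δ library, Ighg3 and Ighg1 from under 1 RPKM in both. How many of all genes differ by more than counting error at this depth was not counted. The ε gene Ighe, not among the 10, was listed at 0 in both.

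Igha was the one constant region gene with more RNA in Δ/Δ. Igha (ENSMUST00000178282, 113258702 to 113260236), the constant region of the antibody class of mucosal surfaces, lies last in the row of heavy chain genes. It measured 0.113 RPKM in C/C from 20 reads and 1.13 RPKM in Δ/Δ from 225 reads. The Δ/Δ value was 9.96-fold higher (interval 5.23 to 21.4), and the counting intervals of 0.0544 to 0.208 RPKM and 0.932 to 1.36 RPKM did not overlap. The level remained low, at 0.0975% of the heavy chain constant RPKM in Δ/Δ. By the size rule given below, which called 6.28% of all genes higher, 6 of 10 listed plasma cell genes with 1 RPKM were higher and 0 lower. The higher ones included Derl3 (3.41 and 21.8 RPKM) and Xbp1 (58.5 and 183 RPKM). Within the rule were Sdc1 (12.3 and 8.02 RPKM), Irf4 (106 and 59.1 RPKM), Tnfrsf13b (73.1 and 39.1 RPKM) and Slamf7 (97.3 and 98.4 RPKM). The other 4 of the 14 listed were under 1 RPKM in both libraries. They include Jchain, Prdm1 and Tnfrsf17, named here for their roles after their values were seen. Jchain, which joins IgA and IgM units, measured 0.661 and 0.705 RPKM, Prdm1, the plasma cell regulator Blimp-1, 0.558 and 0.224 RPKM, and Tnfrsf17, the receptor BCMA, 0.0290 and 0.0130 RPKM in C/C and Δ/Δ. By the same rule, 10 of 12 myeloid markers with 1 RPKM were higher in Δ/Δ. The part of plasma cell and myeloid genes in the Igha value was not tested.

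Both light chain constant genes were lower in Δ/Δ. Igkc (ENSMUST00000103410, chromosome 6, 70726435 to 70726966, plus strand, a single exon) had 904 RPKM in C/C against 219 in Δ/Δ, 4.13-fold lower (interval 4.02 to 4.24). Iglc2 (ENSMUST00000103749, chromosome 16, 19198401 to 19200351, minus strand) had 71.1 RPKM in C/C against 5.56 in Δ/Δ, 12.8-fold lower (interval 11.4 to 14.3). The interval of Iglc2 lies above that of Igkc, so the λ value differed more between the libraries than the κ value by more than counting error. Reads of Iglc2 may include some of Iglc3, as the sequences above show.

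**Figure D2:**
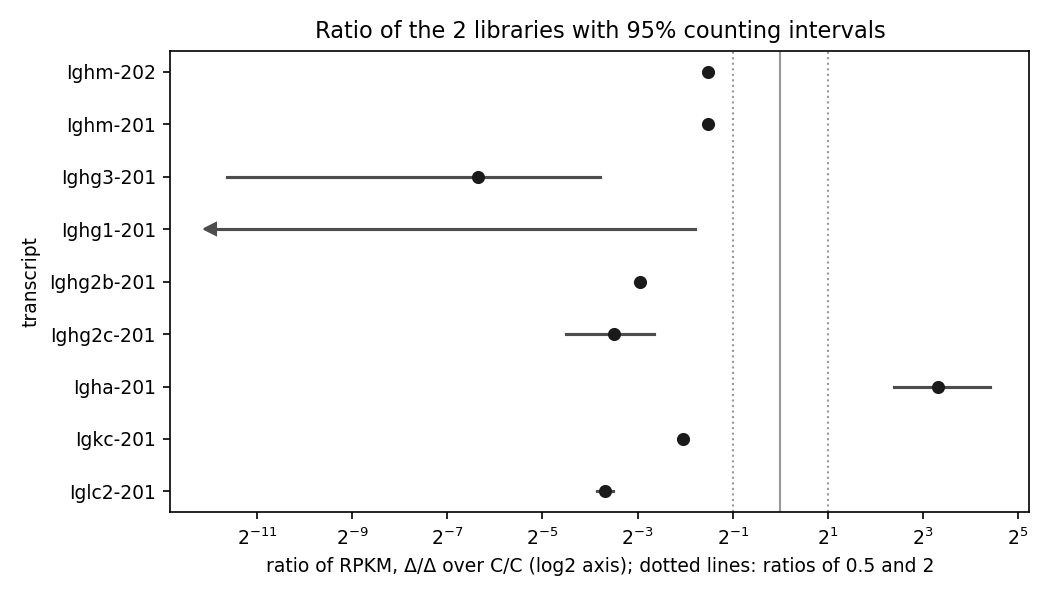
Ratio of RPKM, Δ/Δ over C/C (log2 axis), for each transcript with its 95% counting interval. The solid line marks equal values and the dotted lines ratios of 0.5 and 2; the arrow marks Ighg1-201, with 0 reads in Δ/Δ. Igha-201 alone lies to the right of the solid line, and the intervals of Ighm, Igkc and Iglc2 do not overlap one another.

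In the C/C library the order of levels was Ighm, Igkc, Ighg2b, Iglc2, Ighg2c, Ighg3, Ighg1 and Igha. Neighbours that counting error does not separate are Ighg2c (0.960 to 1.39 RPKM) and Ighg3 (0.645 to 1.04 RPKM), and Ighg1 (0.0833 to 0.267 RPKM) and Igha. In Δ/Δ the order was Ighm, Igkc, Ighg2b, Iglc2, Igha, Ighg2c, Ighg3 and Ighg1. The counting intervals of Ighg2c (0.0529 to 0.179 RPKM) and Ighg3 (0.000264 to 0.0581 RPKM) overlapped there, as did those of Ighg3 and Ighg1 (up to 0.0392 RPKM). The first 4 places were the same in both libraries. Ighg2b and Iglc2 were measured over lengths of different kinds, so their order in C/C (87.9 and 71.1 RPKM) is uncertain.

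The balance among the chains differed. Ighm held 97.3% of the summed heavy chain constant RPKM in C/C and 98.9% in Δ/Δ, while the share of Ighg2b went from 2.61% to 0.983%. Among the light chain genes with a row, Iglc2 held 7.29% in C/C and 2.48% in Δ/Δ. There were 0.276 RPKM of Igkc per RPKM of Ighm in C/C and 0.192 in Δ/Δ. Ighm stood 46.1 times above Iglc2 in C/C and 206 times in Δ/Δ. Shares and multiples that include Iglc2 rest on its exonic length (606 bases, 315 coding), so their size is uncertain. In sum, heavy chain constant RPKM were 2.91-fold lower (3365 and 1155 RPKM) and light chain constant RPKM 4.35-fold lower (975 and 224 RPKM) in Δ/Δ.

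A fixed rule of size was applied to all genes in place of a test. A gene with at least 1 RPKM in a library was called higher or lower when log2((Δ/Δ + 0.5) / (C/C + 0.5)) reached 1 or -1. Of the 8 genes with a row, 6 reached 1 RPKM. By this rule 5 of the 6 were lower (Ighm -1.52, Igkc -2.04, Ighg2b -2.90, Iglc2 -3.56 and Ighg2c -1.46) and 1 was higher (Igha 1.41). Across all 12556 genes with 1 RPKM, 6.66% were lower and 6.28% higher. Ighg2c and Igha reached 1 RPKM only in the library where they were high, and with 1 RPKM added in place of 0.5 neither passed the rule (-0.97 and 0.93). Ighg3 (-1.37) and Ighg1 (-0.38) stayed under 1 RPKM in both libraries. The median log2 ratio was -1.78 over the 6 genes and -1.49 over all 8, beside -0.09 over all genes with 1 RPKM.

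Some facts of the libraries bear on every value. Setdb1 itself had 17.0 RPKM in C/C against 12.6 in Δ/Δ over its whole transcript, which cannot show how complete the deletion was. Xist, transcribed from the inactive X chromosome, measured 0.0940 and 23.7 RPKM, so genotype and sex of the animals cannot be told apart. Fewer cells of a type and less RNA per cell cannot be told apart either. Both libraries carried the RNA of B lineage precursors, with all 14 listed pro-B cell genes at 1 RPKM or more (summed RPKM 5909 and 5023; 1 higher, 4 lower). RNA of later stages was present in C/C, where Ms4a1 (CD20) measured 69.3 RPKM, against 5.07 RPKM in Δ/Δ.

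The V segments, which supply the variable end of joined chains, were mostly lower too. How far V segment and constant region reads came from the same RNA molecules was not tested. Of all 108 heavy chain V segments in the table, 99 had a lower value in Δ/Δ, 6 a higher one and 3 equal values. The share of all genes with any lower value was not counted. Without a filter the median log2 ratio was -2.08 over the 108 segments, beside 0 over all genes. The size rule, which called 6.66% of all genes lower, called 77 of 86 segments lower and 1 higher. However, 65 of the 77 reached 1 RPKM in C/C alone, where they were high. Of the 14 segments with 1 RPKM in both libraries 12 were lower. The summed RPKM of the 108 went from 500.2 to 68.5, 7.31-fold lower. The Ighm ratio was smaller than that of the sum, and Ighm stood at 6.55 times the summed heavy chain V segments in C/C and at 16.7 times in Δ/Δ. Of all 101 κ V segments 92 had a lower value in Δ/Δ and 4 a higher one (median -1.70 without a filter). The rule called 62 of 72 lower and 1 higher, and 52 of the 62 reached 1 RPKM in C/C alone. Of the 18 with 1 RPKM in both libraries 10 were lower. The sum over the 101 was 4.51-fold lower (466 and 103 RPKM), beside 4.13-fold for Igkc. Igkc was 1.94 times the summed κ V segments in C/C and 2.12 times in Δ/Δ.

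The 3 λ V segments were all lower, and unequally. Iglv1, which lies between Iglc4 and Iglc3 on chromosome 16 (19085017 to 19085500), went from 191 to 35.5 RPKM, 5.38-fold lower. Iglv2 (23.3 to 1.47 RPKM, 15.8-fold) and Iglv3 (85.0 to 7.55 RPKM, 11.3-fold) lie on the other side of Iglc2, upstream in the direction of transcription. The ratio of Iglc2, at 12.8-fold, fell between those of Iglv2 and Iglv3. Reads of V segments can be shared among relatives, so single segments are uncertain.

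Of 9 J segments in the table, the short pieces that join V to the constant region, 7 were lower by the rule, beside 6.66% of all genes. The J segments are 36 to 54 bases long, shorter than a read, so their RPKM depend on how overlapping reads were counted. In the heavy chain locus Ighj3 had 558 RPKM in C/C against 107 in Δ/Δ, Ighj4 245 and 67.3 RPKM, and Ighj1 123 and 46.3 RPKM. Ighj2, at 3.58 and 4.50 RPKM, did not pass the rule. In the κ locus Igkj5 measured 157 and 22.3 RPKM, Igkj2 79.7 and 18.3 RPKM, Igkj4 61.2 and 19.6 RPKM, and Igkj1 202 and 86.5 RPKM. Igkj3, a segment that is not used in functional κ chains, measured 2.28 and 2.73 RPKM. The lowest κ log2 ratio was -2.79 for Igkj5, the segment nearest to Igkc, and the others that passed had -2.09 (Igkj2), -1.62 (Igkj4) and -1.22 (Igkj1), without a steady order along the locus.

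The proteins that carry the µ chain to the cell surface did not share 1 pattern. The signalling chains Cd79a (548 and 153 RPKM) and Cd79b (1372 and 651 RPKM) were lower in Δ/Δ. Of the surrogate light chain genes, Vpreb2 was higher (421 and 894 RPKM), while Vpreb1 (745 and 893 RPKM) and Igll1 (785 and 766 RPKM) stayed within the rule. Vpreb3, which binds nascent chains, measured 814 and 741 RPKM. Igkc was above Igll1 in C/C, at 1.15 times its RPKM, and below it in Δ/Δ, at 0.286 times. The Igkc value rests on its coding length (323 bases, 532 exonic), and the length behind the Igll1 value was not checked. Whether Igkc lay above Igll1 in C/C is therefore uncertain. Ighm stood at 4.17 times the Igll1 level in C/C and 1.49 times in Δ/Δ, and at 5.97 and 7.46 times the Cd79a level.

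**Figure D3:**
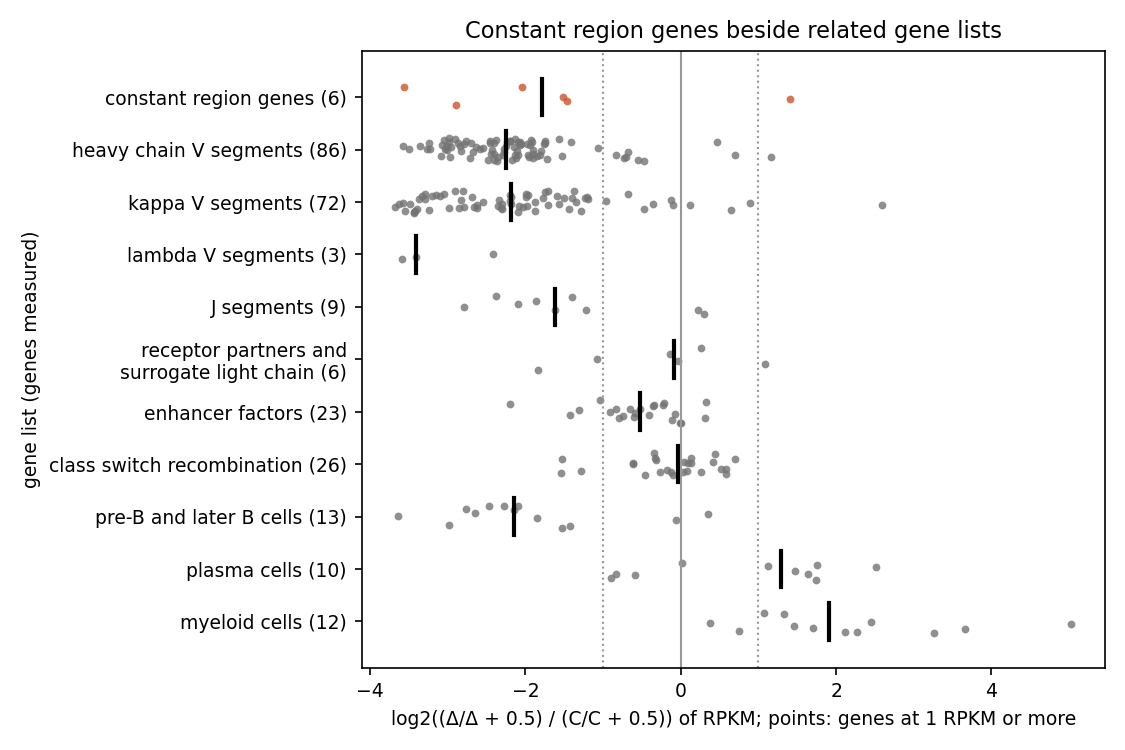
Log2 ratio of Δ/Δ to C/C, with 0.5 RPKM added, for every gene with 1 RPKM in a library in 11 lists, with the median of each list as a bar. Of the 6 constant region genes (orange, median -1.78) 5 lie left of -1, and the medians of the plasma cell and myeloid lists lie to the right of 1.

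Transcription factors that act on the immunoglobulin enhancers, listed together with the inhibitors Id2 and Id3, which do not bind DNA themselves, were mostly within the rule. Of 23 listed, all with 1 RPKM, 4 were called lower and 0 higher. That is 17.4% called, beside 12.9% of all genes in either direction. The median was -0.53, beside -0.09 over all genes with 1 RPKM. Without the rule, 20 had a lower value in Δ/Δ and 3 a higher one. Those called lower included Ikzf3, which encodes Aiolos (63.7 and 13.5 RPKM), and the ETS factor gene Spib (294 and 109 RPKM). The others called were Id3, an inhibitor of E proteins (66.7 and 26.6 RPKM), and the commitment factor gene Pax5 (201 and 97.5 RPKM). The log2 ratio of Pax5 was -1.04, at the edge of the rule. Among the genes with smaller ratios were Irf4, which acts on the light chain enhancers (106 and 59.1 RPKM), the E protein gene Tcf3 (375 and 216 RPKM) and Pou2af1, the octamer coactivator (302 and 280 RPKM).

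The machinery of class switching, of 26 listed genes with 1 RPKM, had 3 lower and 0 higher (median -0.03). That is 11.5% called, beside 12.9% of all genes in either direction. The 3 were Tgfbr2, a receptor for TGF-β (43.3 and 14.6 RPKM), the costimulatory receptor gene Cd40 (24.2 and 8.08 RPKM) and the repressor gene Bach2 (52.6 and 21.3 RPKM). The next in size was Ung, the uracil glycosylase (18.7 and 30.7 RPKM), within the rule.

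Of 9 genes that take part in processing µ and δ RNA or in making the secreted form, 8 had 1 RPKM, 1 was higher and 1 lower. Ell2, an elongation factor that favours the secreted µ end in plasma cells, was higher in Δ/Δ (4.28 and 15.6 RPKM). Zfp318, needed for δ transcripts, was lower (6.42 and 1.32 RPKM). Cstf2, a 3′ end cleavage factor, measured 60.0 and 49.3 RPKM, its partners Cstf1 14.5 and 14.3 RPKM and Cstf3 6.32 and 6.66 RPKM. The RNA-binding protein gene Hnrnpf measured 440 and 438 RPKM, Eaf1 10.3 and 12.8 RPKM and Eaf2, like it a partner of ELL proteins, 3.35 and 3.66 RPKM. Hnrnpll, a splicing factor, was under 1 RPKM at 0.103 and 0.131.

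Receptors for antibody constant regions were split. Of 12 listed, 6 had 1 RPKM, 2 were higher and 2 lower. Fcmr, the receptor for IgM, had 61.9 RPKM in C/C against 3.50 in Δ/Δ, and Fcer2a, the low-affinity IgE receptor CD23, 2.57 and 0.132 RPKM. The higher ones, Fcer1g (0.869 and 6.95 RPKM) and Fcgr3 (0.297 and 3.12 RPKM), encode a signalling chain and an IgG receptor of myeloid and natural killer cells. Fcer2a reached 1 RPKM in C/C alone, and Fcer1g and Fcgr3 in Δ/Δ alone, where they were high. Of the called receptors only Fcmr had 1 RPKM in both libraries. Fcgr2b, the inhibitory IgG receptor of B cells, measured 12.9 and 14.2 RPKM.

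Markers of other cells moved between the libraries as well, and their part in the values of the constant region genes was not tested. Of 13 listed pre-B and later B cell genes with 1 RPKM, 11 were lower and 0 higher, and the summed RPKM of the list were 1916 in C/C and 504 in Δ/Δ, 3.80-fold lower. Led by Ms4a1, the lower genes included Cd2 (61.8 and 7.39 RPKM), Ciita (9.74 and 1.01 RPKM) and H2-Eb1 (96.0 and 14.9 RPKM), while Il2ra (5.99 and 5.75 RPKM), a marker of pre-B cells, did not pass the rule. Of 10 plasma cell genes with 1 RPKM, 6 were higher and 0 lower (sums of 578 and 932 RPKM). The 6 were Derl3, Ell2, Fkbp11, Xbp1, Creld2 and Mzb1, which serve protein folding and secretion or, as Ell2, transcript elongation. Of 12 myeloid markers with 1 RPKM, 10 were higher and 0 lower, with sums over the 19 listed of 33.9 RPKM in C/C against 261 in Δ/Δ. The granule genes Mpo and Elane were at 0 in C/C and at 0.434 and 0.214 RPKM in Δ/Δ. Of 10 dendritic cell markers 5 had 1 RPKM, and all 5 were higher (sums over the 10 of 45.7 and 109 RPKM, Clec9a at 0 in C/C). Most of both sums was Bst2 (43.8 and 95.7 RPKM). Over the 10, 8 had a higher value in Δ/Δ, and Zbtb46 and Xcr1 a lower one. Erythroid and platelet markers had 6 of 7 higher (sums of 9.41 and 78.3 RPKM, none at 0). T cell markers had 2 higher and 1 lower of 5 (sums of 120 and 109 RPKM, Cd3e and Trbc1 at 0 in C/C). The largest part of the C/C sum was Lat (75.7 and 36.3 RPKM). Over all 13 listed T cell genes, most of them under 1 RPKM, 10 had a higher value in Δ/Δ and 3 a lower one (median log2 ratio 0.68). Of the higher markers, 6 myeloid, 4 dendritic, 2 erythroid or platelet and 1 T cell gene reached 1 RPKM in Δ/Δ alone. Of the lower pre-B and later B cell genes, 1 reached 1 RPKM in C/C alone.

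Few genes that neighbour the constant regions passed the rule, 2 of 48 (4.17% lower), beside 6.66% lower among all genes, so the count does not set them apart. Of 20 protein-coding genes with 1 RPKM within 1 Mb of the heavy chain constant block, 1 was lower and 0 higher. The lower one was Tmem121, a membrane protein gene and the nearest of the 20, which lies 65307 bases beyond the block on the Igha side (3.34 and 0.813 RPKM, log2 ratio -1.55). The next genes on that side, Tedc1 (13.3 and 8.26 RPKM) and Crip1 (673 and 693 RPKM), did not pass. None of 7 genes near Igkc passed in either direction, and the nearest, Rpia, measured 168 and 138 RPKM. Of 21 near the λ block 1 was lower, B3gnt5 (40.5 and 15.4 RPKM), at 559857 bases. The genes were taken by distance, a choice made after the constant region values were seen.

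**Figure D4:**
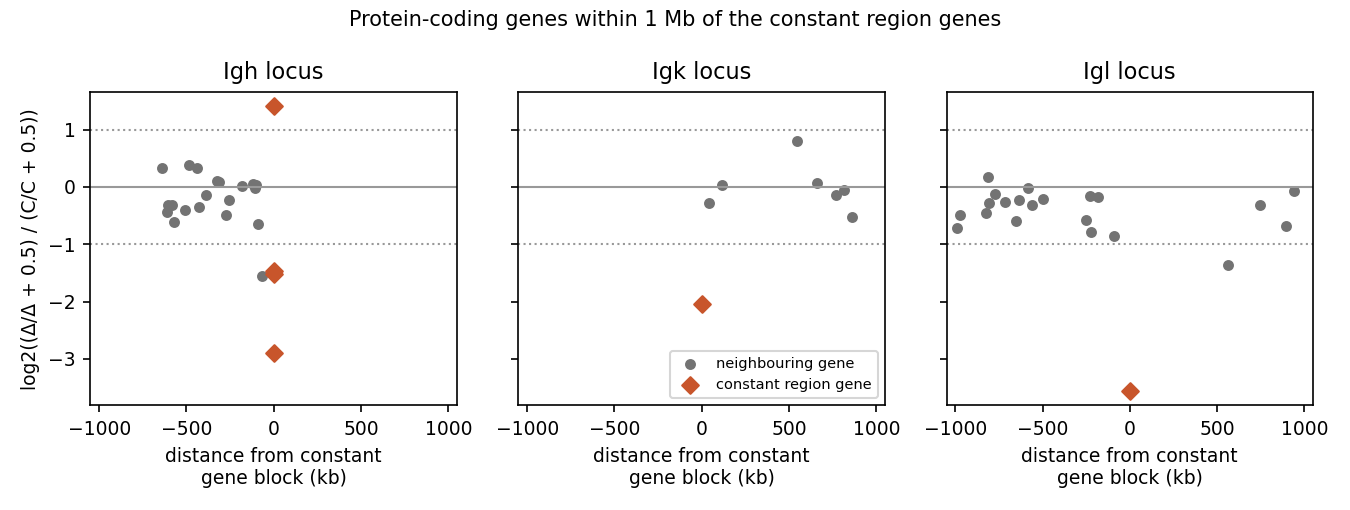
Log2 ratio of Δ/Δ to C/C of constant region genes (orange diamonds, at 0 kb) and of protein-coding genes within 1 Mb of them (grey), against distance in kb from the constant gene block, negative toward lower coordinates. All neighbours but Tmem121 in the heavy chain locus and B3gnt5 in the λ locus lie between the dotted lines at -1 and 1.

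With 2 libraries the pattern of a gene is a single ratio, so likeness to Ighm was measured as the distance in log2 ratio among the 973 genes outside the immunoglobulin families with at least 100 RPKM. The 5 nearest were Emp3 (105 and 36.4 RPKM), Cxcr4 (315 and 110 RPKM), the small Cajal body RNA gene Gm22442 (291 and 100.2 RPKM), the host gene of miR-142, Mir142hg (115 and 38.7 RPKM), and Scd1 (123 and 44.6 RPKM). Counting the immunoglobulin genes, 29 of 982 genes at that level had a log2 ratio at or below that of Ighm, and 20 at or below that of Igkc.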

How the data were processed

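The authors deposited 1 table of RPKM values per transcript, rounded to 3 decimals, with a column Wt (taken as C/C) and a column Del (taken as Δ/Δ). The submitters' processing notes list TopHat2 2.0.9, bedtools, mm9 and mm10, with no role for each. How reads were counted, and with which annotation or strand rule, is not given in the sources used here. Antisense reads therefore cannot be told apart. Identifiers were matched to GENCODE M21 (GRCm38), which named 95.7% of transcripts, and coordinates are from that annotation. Each gene was represented by its transcript with the highest mean RPKM.

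Depth was recovered as the step that makes RPKM times length whole: 96.8% (C/C) and 96.2% (Δ/Δ) of low values of transcripts of 100 to 800 bases lay within 0.1 of a whole read. More transcripts had 2 reads than 1 (C/C: 662 and 600; Δ/Δ: 747 and 536), so 2 reads were taken as 1 fragment in exact Poisson intervals. Read numbers of the 9 member transcripts used the exonic length for Iglc2 and the coding length for the others. These gave whole reads in both libraries, within 0.00055 RPKM, for 7 of them and not for Ighm-202 and Ighg2c-201. With many reads, as for Ighm, this says little about the length, and read numbers are approximate.

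The search for depth and the size rule were checked on simulated reads. The members and gene lists were chosen with earlier results of these data known. Named genes are all members, lists of at most 9 in full and the largest ratios of longer lists, with further genes chosen after their values were seen. Analyses used Python 3.11.15, pandas 2.3.3, scipy 1.17.1 and Biopython 1.88. The result for 1 listed gene is not reported here.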

Additional observations from a re-analysis of the deposited data

How the results depend on the processing

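Of 64 log2 ratios of single genes under alternative settings, 32 were identical to those reported, most because the setting cannot alter them, and the other 32 kept their sign. Of these, 7 moved beyond the counting interval: with 0.1 RPKM added Ighg2c (-2.64) and Igha (2.53), after centring Ighm (-1.42), Ighg2b (-2.81) and Igkc (-1.95), and with a common RPKM sum Ighm (-1.44) and Igkc (-1.96). The number of lower genes was 4 with 1 RPKM added or at a filter of 5 RPKM, 6 without a filter, and 3 (Ighg2b, Igkc and Iglc2) under a 4-fold rule. The number of higher genes was 0 with 1 RPKM added, at a filter of 5 RPKM and under the 4-fold rule, where Igha did not pass or was not measured. The median log2 ratio was -2.34 with 0.1 RPKM added, -1.49 without a filter, -2.47 at 5 RPKM, -1.69 after centring on all genes and -1.70 with a common RPKM sum. The ratio of Igkc to Ighm was 0.141 in C/C and 0.0978 in Δ/Δ when both Ighm transcripts were summed, which counts their shared exons again. Over all genes, lower calls were 51.5% of calls, 44.6% after centring and 45.8% with a common sum. Depth limits Ighg1, Ighg3, Ighg2c and Igha, with 0 to 239 reads each. No paired analysis was possible because each genotype has 1 library.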
